A study of Mus musculus with 6 samples.

Results

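Brush border and microvillus genes were followed in mouse colonic organoids after induction of a recombinase that targets the floxed atypical protein kinase C (aPKC) genes Prkci and Prkcz. The 10 genes were taken by symbol from the 25067 rows of the deposited table: the actin core genes Vil1, Espn, Eps8 and Pls1, the membrane link genes Ezr and Myo1a, and the intermicrovillar adhesion genes Cdhr2, Cdhr5, Ush1c and Myo7b. All 10 were found, and all 10 passed the filter on low values (a mean normalized read count of at least 10), as did 13210 rows in total.

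RNA from organoids was sequenced in 6 libraries, 3 per group. Every organoid was Prkci f/f and Prkcz f/f, so that both aPKC genes are floxed, and carried Villin-CreERT2 on a C57BL/6 background. Its recombinase, driven by the Villin promoter and so limited to epithelial cells, becomes active after 4-hydroxytamoxifen (4-OHT) is given. Crypts came from animals 8 weeks old and were grown with B27, WNT3A, EGF, Noggin and R-spondin 1. At passage the organoids received 4-OHT or ethanol vehicle, and RNA was taken 3 days later. The vehicle group is marked wild type in one label, although its genotype is the same floxed one. Since no 4-OHT-treated library without the recombinase or without floxed alleles was analysed here, loss of the aPKCs, activity of the recombinase and 4-OHT itself cannot be told apart. The labels do not say whether the 3 libraries of a group came from separate animals or cultures, so the p-values measure the spread between these libraries, which may be technical.

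The brush border is the carpet of microvilli on the apical face of an absorptive enterocyte or colonocyte. Each microvillus is a bundle of parallel actin filaments that villin, espin and plastin-1 hold together and EPS8 marks at its tip. Ezrin and myosin-1a tie the bundle to the overlying membrane. At the tips, the protocadherins CDHR2 and CDHR5 bind each other across neighbouring microvilli, and inside the cell they are anchored by a complex that includes harmonin, encoded by Ush1c, and myosin-7b. These genes rise as epithelial cells leave the crypt and become absorptive.

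The libraries held between 15804709 and 26957612 reads. Prkcz had 880, 904 and 954 normalized read counts in vehicle replicates 1, 2 and 3 and 287, 265 and 290.3 with 4-OHT, a log2 fold change of -1.70 ± 0.08 (SE, adjusted p = 3.2e-12 in limma). Prkci had 3603, 3526 and 3429.7 with vehicle and 2869, 3105 and 3089 with 4-OHT, a smaller fall of 0.22 ± 0.05 on the log2 scale (limma adjusted p = 0.00081). The direction at both targeted genes was that of the labels, and counts over a whole gene do not show whether a floxed exon was lost. The colon epithelium markers Epcam, Cdh1, Krt8 and Cdx2 had reads in every library.

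Several markers of other cells set 4-OHT replicates 2 and 3 apart from the other 4 libraries. A list of 8 Paneth and ileal genes summed to 10.7, 18.1 and 13.4 RPM (reads scaled to a library total of 1000000) in the vehicle libraries and to 11.8, 62.9 and 46.9 in 4-OHT replicates 1, 2 and 3, with 6 of the 8 called higher and Defa22 at 0 in the other 4 libraries. Blood cell markers (7 genes) reached 10.9 and 5.23 RPM in 4-OHT replicates 2 and 3 and at most 0.32 elsewhere, with Igkc and Jchain at 0 in all 4 other libraries. The highest of them was Igha, at 139.9 and 45.5 normalized read counts in 4-OHT replicates 2 and 3. Ptprc did not follow the split, at 0, 2.13 and 4.84 with vehicle and 1.03, 1.04 and 3.42 with 4-OHT. Cd3e was at 0 in 4-OHT replicate 3 as well. Smooth muscle markers (4 genes) reached 2.60 and 5.34 in the same libraries and at most 0.26 elsewhere, and the 6 fibroblast markers reached 9.71 in 4-OHT replicate 3 and at most 1.08 elsewhere, with Col1a2, Col3a1, Dcn and Lum at 0 in the vehicle libraries and 4-OHT replicate 1. Because of the markers that did set 4-OHT replicates 2 and 3 apart, the fit was repeated with both left out. This covers each fold change given below for brush border genes. Of the counts of calls, it covers those over the 10 genes and over all other listed brush border genes. The counts by group of genes come only from the fit with all libraries. That fit keeps 1 treated library, which is assumed to vary like the others.

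Of the 10 brush border genes, 6 were higher with 4-OHT at an adjusted p under 0.05, 0 were lower and 4 did not pass. The higher genes were Ezr, Cdhr2, Cdhr5, Eps8, Myo1a and Vil1, and the genes that did not pass were Pls1, Ush1c, Myo7b and Espn. Over all 13210 rows, 43.6% passed in either direction, 22.7% as higher and 21.0% as lower. The genes are mostly highly expressed, and among the 4434 rows with a mean of at least 1000, 59.4% passed and 36.1% were higher. The median log2 fold change of the 10 genes was 0.26, beside -0.0054 over all rows tested. Under quantile normalization these medians were 0.18 and -0.0053. No median was taken over the rows with a mean of at least 1000. For the same 6 genes, the 3 values with 4-OHT all lay above the 3 with vehicle, and 52.1% of all rows had groups apart in one direction or the other. The 6 genes higher and 0 lower also held with 4-OHT replicates 2 and 3 both left out. As a share of all reads, the 10 genes together took 0.376%, 0.378% and 0.349% in vehicle replicates 1, 2 and 3 and 0.424%, 0.451% and 0.440% in 4-OHT replicates 1, 2 and 3. In bulk RNA, more cells of a type and more RNA per cell cannot be told apart.

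**Figure D1:**
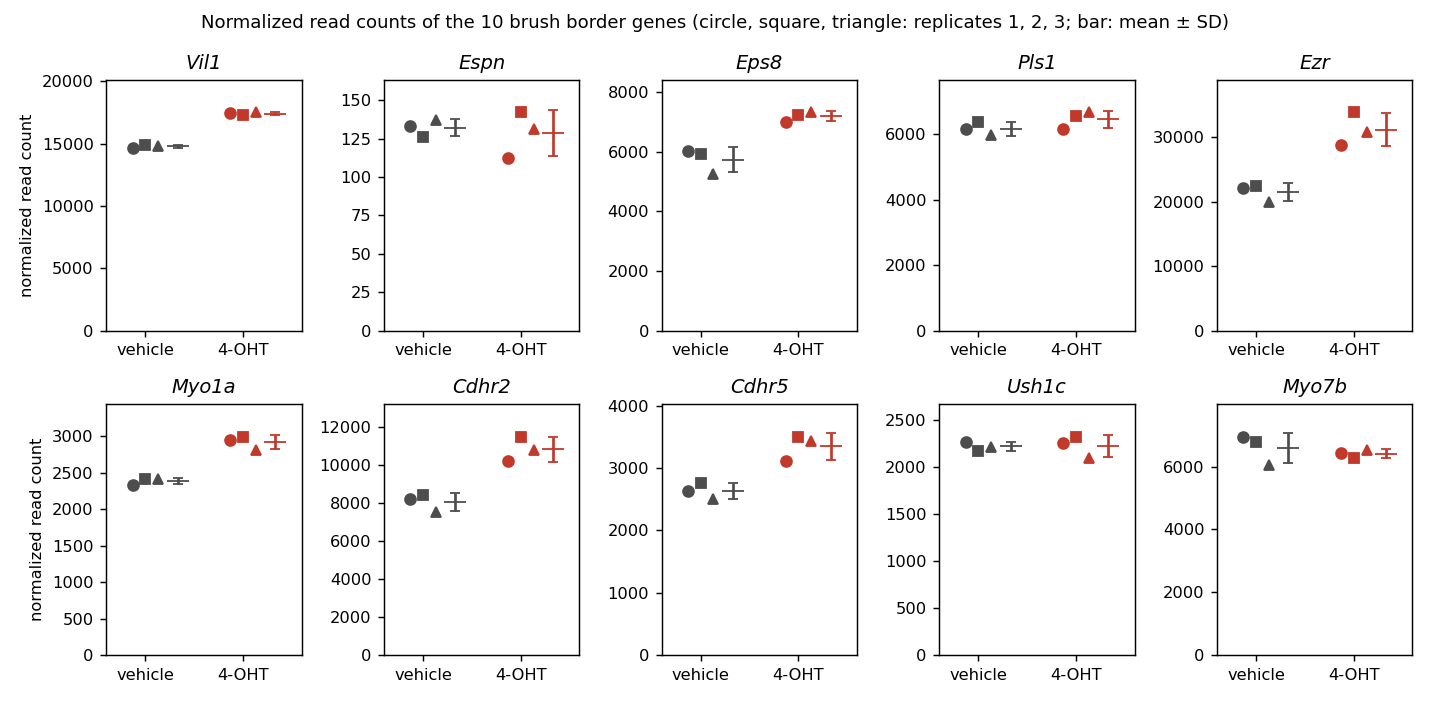
Normalized read count (vertical axes from 0) of the 10 brush border genes in each library, grouped by vehicle and 4-OHT, with replicates 1, 2 and 3 as circle, square and triangle and the mean ± SD as a bar. The 3 values with 4-OHT lie above the 3 with vehicle for Vil1, Eps8, Ezr, Myo1a, Cdhr2 and Cdhr5, and the groups overlap for Espn, Pls1, Ush1c and Myo7b.

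Within the actin core, Vil1 and Eps8 rose while Pls1 and Espn did not pass the test. Vil1 encodes villin, which bundles, caps and severs actin filaments, and its promoter drives the recombinase transgene of these organoids. Its normalized read count was 14622, 14880.3 and 14830 in vehicle replicates 1, 2 and 3 and 17407, 17294 and 17490.5 with 4-OHT. The groups were far apart relative to their spread, with less relative spread between replicates than any other of the 10 genes in either group. The log2 fold change was 0.24 ± 0.04 (SE, adjusted p = 7.4e-05 in limma), or 1.18-fold, and it fell to 0.12 under quantile normalization, where it still passed.

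Eps8 encodes an actin capping and bundling protein of microvillus tips. It had 6022, 5918 and 5254 normalized read counts with vehicle and 7001, 7240.3 and 7310.4 with 4-OHT. Vehicle replicate 3 was the lowest library and no value of one group reached the other. The difference was 0.33 ± 0.05 on the log2 scale (SE, adjusted p = 2.3e-05 in limma), or 1.25-fold.

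Pls1 encodes plastin-1, the fimbrin of the intestinal microvillus. It had 6150.1, 6372 and 5959.9 normalized read counts with vehicle and 6169, 6549 and 6662 with 4-OHT. The lowest 4-OHT value lay inside the vehicle range. The log2 fold change of 0.07 ± 0.05 (SE, adjusted p = 0.24 in limma) had a 95% interval from -0.03 to 0.16. That interval overlapped the one of Vil1, which ran from 0.15 to 0.32.

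Espn encodes espin, an actin bundler that lengthens microvilli. It was the least expressed of the 10, at 133, 126 and 137 normalized read counts with vehicle and 113, 142 and 131 with 4-OHT. The 4-OHT values fell on both sides of the vehicle values. The smallest number of reads behind any value of the 10 genes was its 109 in 4-OHT replicate 1. The interval of its log2 fold change was wide, from -0.33 to 0.24 around -0.05 (limma adjusted p = 0.81). The parts of read depth and of spread between libraries in this width were not tested. With 4-OHT replicates 2 and 3 both left out it was at -0.23 (limma adjusted p = 0.39). Given the width of that interval, a change of the size seen in Vil1 was not detectable for Espn in these libraries.

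Both membrane link genes rose. Ezr encodes ezrin, which binds membrane proteins with one end and actin with the other. It had 22137.5, 22499 and 19907 normalized read counts with vehicle and 28847, 33854 and 30869 with 4-OHT. Its lowest 4-OHT value was well above its highest vehicle value, and 4-OHT replicate 1 was the lowest of the treated libraries. The log2 fold change of 0.53 ± 0.06 (SE, adjusted p = 2.4e-07 in limma), or 1.45-fold, was the largest of the 10 genes and lay above that of 83.6% of all rows tested in absolute size. With 4-OHT replicates 2 and 3 both left out it was 0.43 (limma adjusted p = 0.0014).

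Myo1a encodes the myosin that forms lateral bridges between the actin core and the membrane. It had 2337, 2414 and 2414 normalized read counts with vehicle and 2957, 2996 and 2821 with 4-OHT. The groups did not overlap, and here 4-OHT replicate 1 was not the lowest treated library. The log2 fold change was 0.29 ± 0.05 (SE, adjusted p = 4.3e-05 in limma), or 1.22-fold.

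By distance between log2 profiles centred on their mean over the 6 libraries, the genes most like Ezr were Map7d1 (distance 0.0565), Tamalin (0.0574) and Emp1 (0.0702). Their log2 fold changes were 0.54, 0.52 and 0.49, with Emp1 at 0.29 under quantile normalization. The similarity rests on a single difference between 2 groups and on 6 libraries.

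Of the 4 intermicrovillar adhesion genes, the cadherins rose and Ush1c and Myo7b did not pass the test. Cdhr2 had 8202, 8393 and 7513 normalized read counts with vehicle and 10182.5, 11481 and 10800.5 with 4-OHT. Its groups were apart, and the log2 fold change was 0.43 ± 0.05 (SE, adjusted p = 1.1e-06 in limma), or 1.35-fold. Cdhr5, the binding partner of Cdhr2 across microvilli, had 2642, 2757 and 2499 with vehicle and 3109.7, 3506 and 3435.5 with 4-OHT. Its groups were also apart, with 4-OHT replicate 1 the lowest treated library for both cadherins, and its log2 fold change was 0.35 ± 0.05 (SE, adjusted p = 2.7e-05 in limma), or 1.27-fold.

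Ush1c, which encodes the scaffold harmonin, had 2262, 2172 and 2214 normalized read counts with vehicle and 2249, 2319 and 2092 with 4-OHT. The treated values spanned the vehicle values, and the log2 fold change was 0.0013 with a 95% interval from -0.11 to 0.11 (limma adjusted p = 0.99). Its sign turned with the normalization. Myo7b, the motor of the complex, had 6949.7, 6769 and 6064 with vehicle and 6434, 6259 and 6531 with 4-OHT. All 3 treated values lay inside the vehicle range, and the log2 fold change was -0.04 with an interval from -0.14 to 0.06 (limma adjusted p = 0.56). The intervals of Ush1c and Myo7b did not reach the lower bounds of Cdhr5 (0.23) and Cdhr2 (0.32).

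The difference within the complex was also expressed as the mean log2 level of Cdhr2 and Cdhr5 minus that of Ush1c and Myo7b in each library. This measure was added after the values had been seen, and it sets the genes seen to rise against those seen not to rise. A gap between the groups was thus built in, and neither its size nor its stability is further support. The measure leaves out Calml4 and Anks4b, described below, and it is given without a test. It was 0.23, 0.33 and 0.24 in vehicle replicates 1, 2 and 3 and 0.56, 0.74 and 0.72 in 4-OHT replicates 1, 2 and 3. Every treated library lay above every vehicle library, and the group means of 0.27 ± 0.05 and 0.67 ± 0.09 (SD, n = 3) differed by 0.41. The difference stayed between 0.38 and 0.46 when any 1 library was left out, and it was 0.30 with 4-OHT replicates 2 and 3 both left out.

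**Figure D2:**
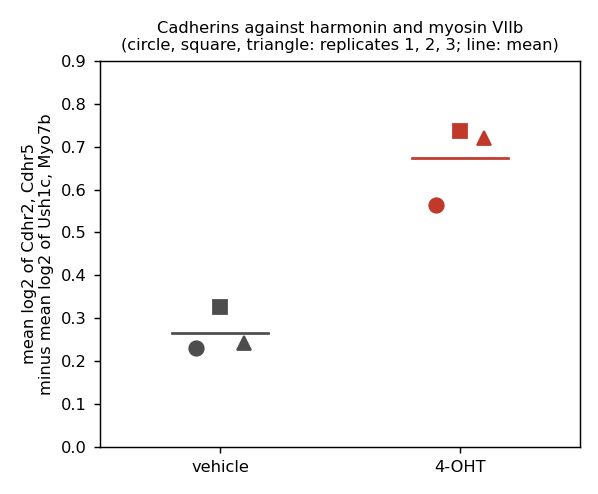
Mean log2 normalized read count of Cdhr2 and Cdhr5 minus that of Ush1c and Myo7b (vertical axis, log2 units) in each vehicle and 4-OHT library, with replicates 1, 2 and 3 as circle, square and triangle and the group mean as a line. The vehicle libraries lie between 0.23 and 0.33 and the 4-OHT libraries between 0.56 and 0.74. The genes on each side were chosen after their values had been seen, so a gap was built in.

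The remaining listed genes of the adhesion complex gave 1 call. Calml4, which encodes a calmodulin-like light chain of the motor, rose by 0.22 ± 0.06 on the log2 scale (SE, adjusted p = 0.0051 in limma), from 952, 946 and 973 normalized read counts to 1184, 1101 and 1067. Anks4b, which encodes the scaffold that joins harmonin to the motor, had 795, 947 and 839 with vehicle and 848, 957 and 854 with 4-OHT, a log2 fold change of 0.04 ± 0.07 (limma adjusted p = 0.65). Its sign turned without vehicle replicate 1 (-0.01), without 4-OHT replicate 2 (-0.01) and without 4-OHT replicates 2 and 3 (-0.02).

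Promoter sequences were set beside these differences for 4 of the genes: Vil1, whose promoter also defines where the transgene acts, Ezr with the largest rise, and Cdhr2 and Ush1c as adhesion genes that did and did not rise. Each stretch is the 250 bases before the RefSeq start in GRCm38.p6, 5′ to 3′ on the strand of the gene. Vil1 is at chr1:74409134-74409383 on the plus strand, Ezr at chr17:6782781-6783030 on the minus strand, Cdhr2 at chr13:54701213-54701462 on the plus strand and Ush1c at chr7:46238491-46238740 on the minus strand. Capitals mark the only motif match found among them, a CArG box in Vil1.
Vil1: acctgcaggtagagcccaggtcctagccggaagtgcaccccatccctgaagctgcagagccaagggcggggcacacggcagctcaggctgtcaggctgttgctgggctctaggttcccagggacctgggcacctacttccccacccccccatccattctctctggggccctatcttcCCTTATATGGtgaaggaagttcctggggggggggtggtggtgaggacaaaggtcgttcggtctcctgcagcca
Ezr: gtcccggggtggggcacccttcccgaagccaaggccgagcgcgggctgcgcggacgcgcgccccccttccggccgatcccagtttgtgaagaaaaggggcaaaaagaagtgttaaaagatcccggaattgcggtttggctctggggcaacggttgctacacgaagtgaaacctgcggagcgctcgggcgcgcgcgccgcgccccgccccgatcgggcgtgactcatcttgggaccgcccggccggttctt
Cdhr2: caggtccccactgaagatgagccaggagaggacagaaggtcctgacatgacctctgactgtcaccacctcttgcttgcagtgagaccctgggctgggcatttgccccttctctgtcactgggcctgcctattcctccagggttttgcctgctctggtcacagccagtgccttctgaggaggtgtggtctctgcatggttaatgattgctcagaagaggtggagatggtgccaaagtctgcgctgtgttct
Ush1c: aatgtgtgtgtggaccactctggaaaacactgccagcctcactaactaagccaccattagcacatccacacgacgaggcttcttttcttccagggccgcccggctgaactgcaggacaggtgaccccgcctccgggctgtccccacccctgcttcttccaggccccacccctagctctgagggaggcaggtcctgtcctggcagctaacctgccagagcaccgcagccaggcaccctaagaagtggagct

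The CArG box, the sequence bound by serum response factor, lies 73 to 64 bases before the Vil1 start. Both strands of all 32851 listed promoters were searched for it and for 3 other motifs: CAAAGTNCA for HNF4, TTTATNG for CDX factors and AGATAA for GATA factors. The CArG box was in 1.47% of promoters, the HNF4 motif in 1.19%, the CDX motif in 9.81% and the GATA motif in 9.99%. Among the 8 brush border genes with an entry, the only other match was a CDX motif in 1 of the promoters of Espn, and Ezr, Cdhr2, Cdhr5, Ush1c, Myo1a and Pls1 had none. The windows of Ezr and Vil1 were GC-rich (67.2% and 62.8%), that of Ush1c was at 61.2% and that of Cdhr2 was at 56%. A match describes letters and is not a binding site. The motifs were chosen after the expression values were known.

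Between genes, levels were compared per kilobase of merged exon (GENCODE vM21). In the vehicle libraries the order of mean length-scaled levels was Ezr (6539 normalized read counts per kilobase), Vil1 (4162), Cdhr2 (1946), Pls1 (1584), Myo7b (996), Cdhr5 (961), Myo1a (643), Ush1c (576), Eps8 (464) and Espn (16.0). The ranges of neighbours did not overlap except between Myo7b and Cdhr5. The membrane linker ezrin and the core bundler villin were thus at the top and the bundler espin far below every other gene. With 4-OHT, Cdhr5 (1223) moved above Myo7b (968), and the mean of Eps8 (581) came above that of Ush1c (577), with overlapping ranges for the latter pair. The ranking assumes that all annotated exons of a gene are used and that reads cover the whole transcript. These assumptions make it least certain for Eps8 and Espn with their long merged exons (12355 and 8272 bases). Antisense genes overlap 120 exonic bases of Ush1c, 49 of Vil1 and 4 of Ezr, so a small share of their reads cannot be assigned with certainty.

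**Figure D3:**
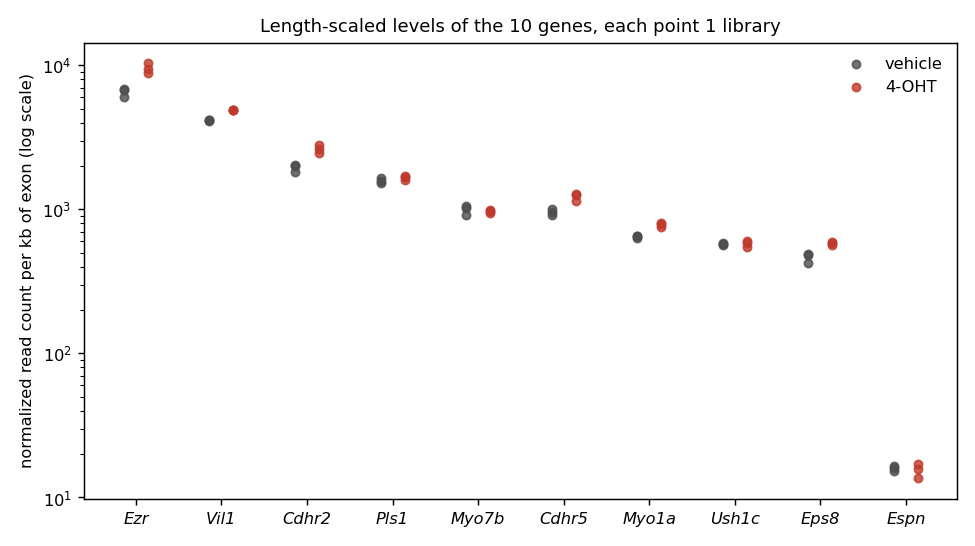
Normalized read count per kilobase of merged exon (vertical axis, log scale) for the 10 brush border genes, ordered by their vehicle mean, each point 1 library, vehicle in grey and 4-OHT in red. Mean vehicle levels fall from 6539 for Ezr to 16.0 for Espn, and the vehicle points of Myo7b and Cdhr5 overlap.

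Other brush border genes came from a list of 72, of which 71 were in the table (Muc17 was not) and 62 passed the filter on low values. Of those 62 genes, 32 were higher with 4-OHT, 8 were lower and 22 did not pass, with a median log2 fold change of 0.22. Over all rows tested, 43.6% passed, 22.7% as higher and 21.0% as lower. Among rows with a mean of at least 1000, 59.4% passed and 36.1% were higher. The counts by group given below rest on few genes each and are to be read beside these shares. Without 4-OHT replicates 2 and 3 the counts were 24 higher and 3 lower. The lower count was 4 without vehicle replicate 1 and 5 without vehicle replicate 2, 4-OHT replicate 1 or 4-OHT replicate 2.

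Among genes of the actin core and tips, 9 of 14 tested were higher and 2 were lower. Fscn1, which encodes the filament bundler fascin, went from 28.0, 29.8 and 27.8 normalized read counts to 66.1, 59.1 and 58.1, a log2 fold change of 1.07 ± 0.22 (SE, adjusted p = 0.00054 in limma). Pls3, a paralogue of Pls1, went from 3660.04, 3674 and 3491 to 6195, 6732 and 6344, a log2 fold change of 0.83 ± 0.05 (SE, adjusted p = 4.3e-11 in limma). The groups were far apart for Pls3, while those of Pls1 overlapped. The Eps8 relative Eps8l1 rose by 0.67 ± 0.11 and the villin-like gene Vill by 0.65 ± 0.05 on the log2 scale. The lower genes, named after their values were seen, were Baiap2l2 (-0.20 ± 0.08) and the actin nucleator Cobl (-0.17 ± 0.06). Without 4-OHT replicates 2 and 3 they were at -0.014 and -0.084 and did not pass. Cobl was also lost without vehicle replicate 1 (-0.14) or 4-OHT replicate 2 (-0.11), and Baiap2l2 without vehicle replicate 1 (-0.15), vehicle replicate 3 (-0.18), 4-OHT replicate 2 (-0.099) or 4-OHT replicate 3 (-0.20) and in DESeq2 (-0.19).

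Of 8 further myosins, 5 were higher and 1 lower. Rises were found in the class I myosins Myo1c (log2 fold change 0.27 ± 0.04) and Myo1e (0.23 ± 0.05) and in the vesicle motor Myo5c (0.24 ± 0.06), close to that of Myo1a, with Myo1c at 0.15 under quantile normalization. Myo6, which moves toward the base of microvilli and was named after its value was seen, was lower by -0.12 ± 0.04, a call lost under 8 of the 16 alternatives: without any 1 library other than vehicle replicate 3 (-0.13 to -0.092), without 4-OHT replicates 2 and 3 (-0.12), with no filter and with the replicate block (both -0.12).

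The relatives and partners of ezrin moved in both directions, with 4 of 9 tested higher and 2 lower. Moesin (Msn) went from 2209, 2086 and 2197 normalized read counts to 3777, 3759 and 3935, a log2 fold change of 0.82 ± 0.05 (SE, adjusted p = 6.5e-11 in limma). Radixin (Rdx) went from 130, 167 and 159 to 89.9, 119 and 132, a log2 fold change of -0.42 ± 0.16 (SE, adjusted p = 0.036 in limma). The radixin groups overlapped, and the call was lost under 5 of the 16 alternatives: without vehicle replicate 2 (-0.35), vehicle replicate 3 (-0.39) or 4-OHT replicate 1 (-0.26), under quantile normalization (-0.37) and in DESeq2 (-0.42). Without 4-OHT replicates 2 and 3 radixin was at -0.74 and passed. Slc9a3r1, which encodes the scaffold that binds ezrin below the membrane, rose by 0.50 ± 0.05, and Podxl, an ezrin-binding sialomucin, rose by 0.67 ± 0.21, a call lost without vehicle replicate 3 (0.48), without 4-OHT replicate 3 (0.50) and without 4-OHT replicates 2 and 3 (0.36). Nf2, which encodes the ERM relative merlin and was named after its value was seen, was lower by -0.15 ± 0.05, a call lost without vehicle replicate 2 (-0.14) and without 4-OHT replicates 2 and 3 (-0.13).

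In the terminal web, the actin and spectrin mesh below the microvilli, 3 of 6 genes were higher and 1 lower. Tropomyosin Tpm1 rose by 0.48 ± 0.04 on the log2 scale and the non-muscle myosin Myh9 by 0.19 ± 0.04, while the spectrin Sptbn1 fell by 0.21 ± 0.05. Under quantile normalization Myh9 turned to -0.04, and without 4-OHT replicates 2 and 3 Sptbn1 was at -0.12 (limma adjusted p = 0.14). Myh14 was higher by 0.12 ± 0.04, a call lost under 7 of the 16 alternatives: without vehicle replicate 2 (0.11), 4-OHT replicate 2 (0.095), 4-OHT replicate 3 (0.13) or both of the latter (0.086), with no filter or with the replicate block (both 0.12), and under quantile normalization (0.0013). Of 6 genes for apical trafficking, 4 were higher: the small GTPases Rab11a (0.43 ± 0.06) and Rab8a (0.17 ± 0.05; 0.11 under quantile normalization) and the apical fusion genes Stx3 (0.41 ± 0.06) and Stxbp2 (0.29 ± 0.05).

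**Figure D4:**
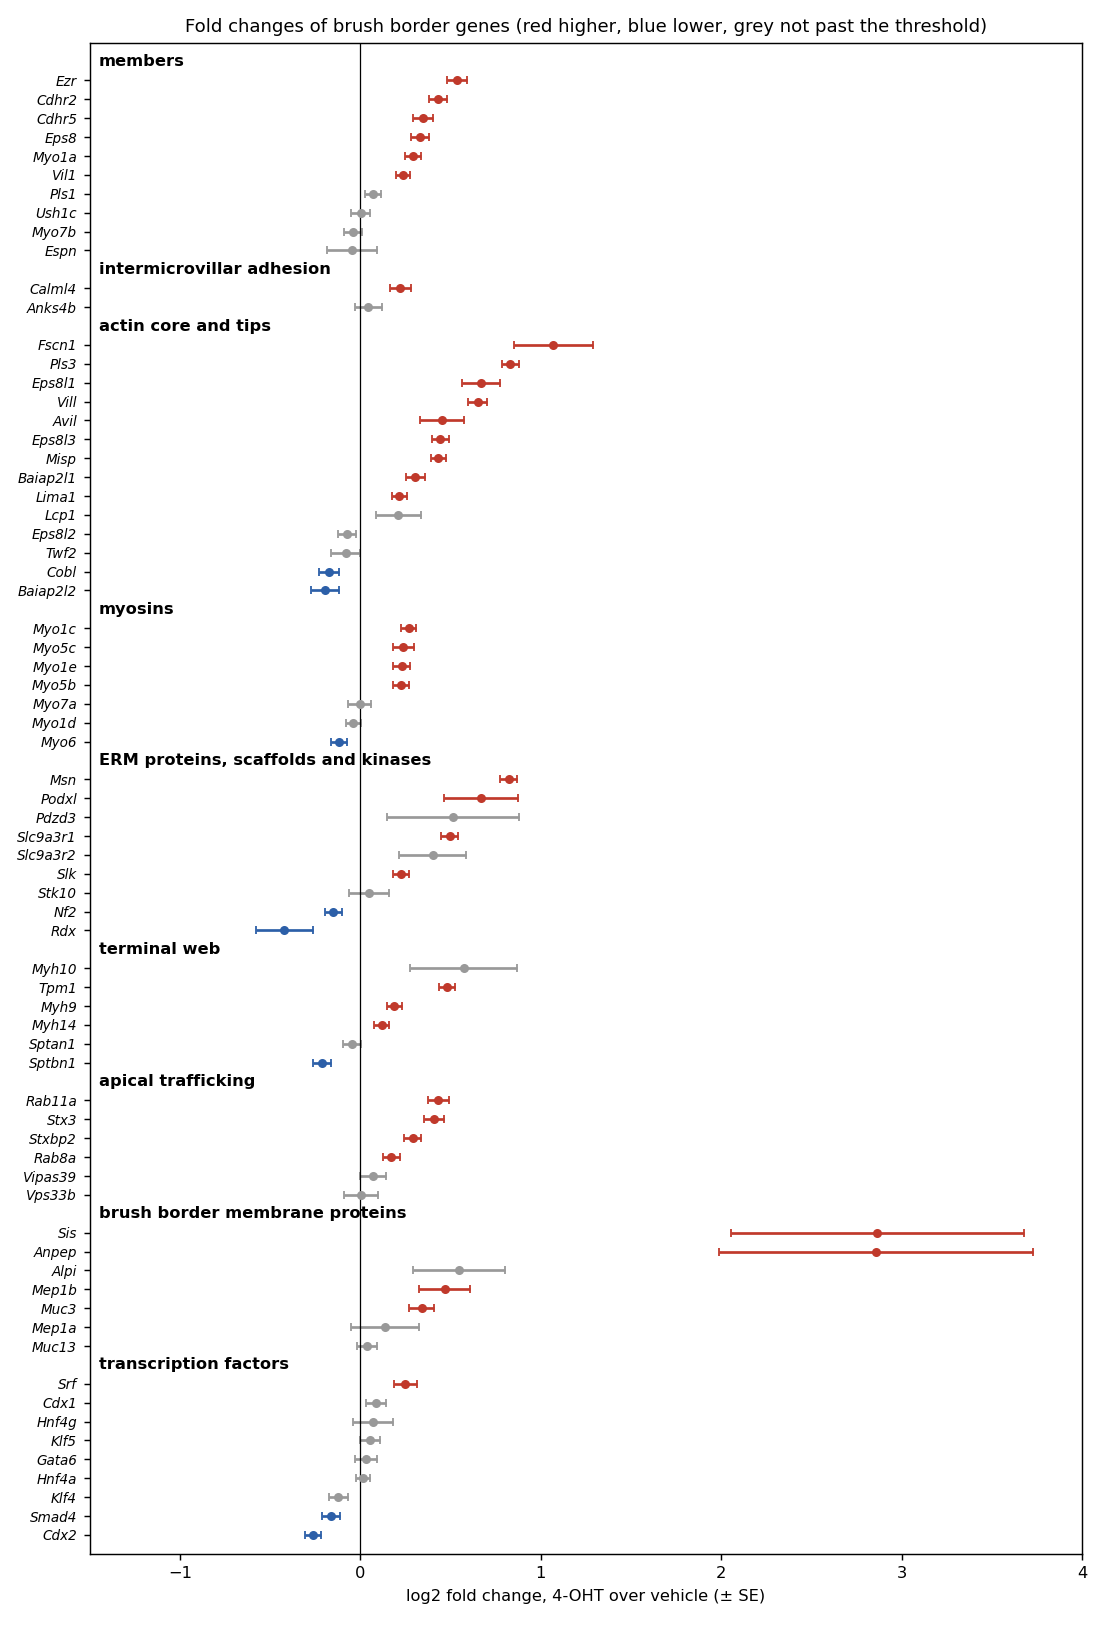
Log2 fold change, 4-OHT over vehicle (horizontal axis, ± SE), of the 10 brush border genes and 60 of the other tested genes by group, red where higher and blue where lower at an adjusted p under 0.05 and grey otherwise. Among the 10 genes, 6 are red and none is blue, and among the others 30 are red and 8 blue.

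Brush border membrane proteins gave the largest fold changes, and none of the calls held without 4-OHT replicates 2 and 3. Of 8 tested, 5 were higher and 0 lower. Anpep, the aminopeptidase N gene, had 4.66, 7.09 and 4.84 normalized read counts with vehicle and 3.10, 177 and 139 with 4-OHT (log2 fold change 2.86 ± 0.87 SE, adjusted p = 0.011 in limma). Treated replicate 1 was below all vehicle libraries, so the groups overlapped. Without 4-OHT replicates 2 and 3 the fold change turned to -0.65 (limma adjusted p = 0.48), and without either one alone it was 1.89 or 2.07 and did not pass. Without 4-OHT replicate 1 it was 4.61.

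Sis, which encodes sucrase-isomaltase, had 0.93, 4.97 and 0 normalized read counts with vehicle and 3.10, 21.8 and 46.7 with 4-OHT (log2 fold change 2.86 ± 0.81 SE, adjusted p = 0.0073 in limma). The meprin gene Mep1b had 156, 204 and 191 with vehicle and 198, 271 and 300.5 with 4-OHT (0.47 ± 0.14, limma adjusted p = 0.011). Sis and Mep1b had overlapping groups and lost the call without 4-OHT replicates 2 and 3, at 0.86 and 0.12 on the log2 scale. Without 4-OHT replicate 3 alone they were at 2.10 and 0.34 and did not pass. Mep1b was also lost without 4-OHT replicate 2 (0.42) or vehicle replicate 1 (0.35), and Sis was at 1.28 with a pseudocount of 10. These 4-OHT libraries are those with the high Paneth and ileal sums, and their part in the result was not tested. The membrane mucin Muc3, named after its values were seen, had groups apart and a log2 fold change of 0.34 ± 0.07 (SE, adjusted p = 0.00044 in limma). Without 4-OHT replicates 2 and 3 it was at 0.20 and did not pass (limma adjusted p = 0.14).

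**Figure D5:**
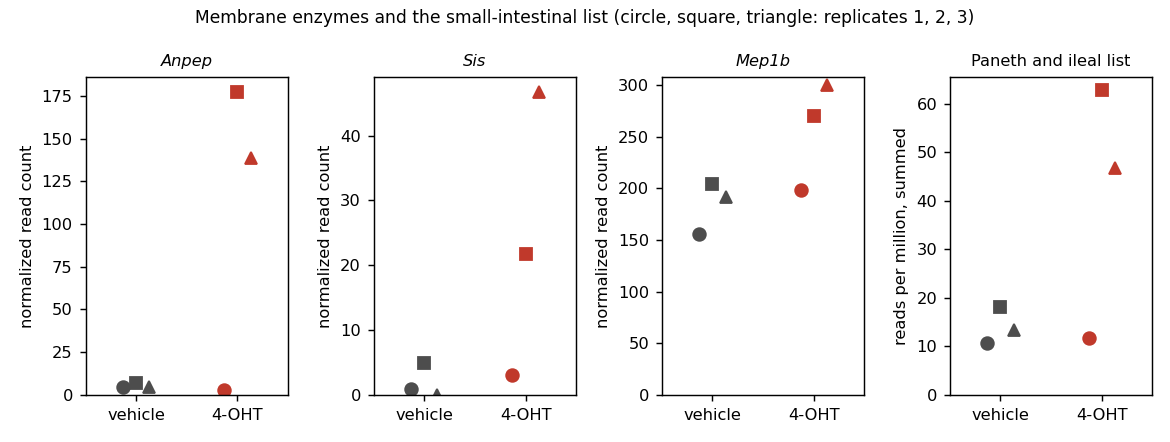
Normalized read counts (vertical axes from 0) of Anpep, Sis and Mep1b and the summed RPM of the 8 Paneth and ileal genes in each library, with replicates 1, 2 and 3 as circle, square and triangle. For Anpep and Sis and for the summed list, 4-OHT replicate 1 lies near the vehicle libraries and 4-OHT replicates 2 and 3 lie above them.

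Of 9 tested transcription factors known to act on brush border genes, 1 was higher with 4-OHT, 2 were lower and 6 did not pass. Srf, which encodes serum response factor, had 1018, 915 and 915 normalized read counts with vehicle and 1119, 1069 and 1194 with 4-OHT, a log2 fold change of 0.25 ± 0.06 (SE, adjusted p = 0.0038 in limma) that lost the call without 4-OHT replicates 2 and 3, where it was 0.24 ± 0.09 (limma adjusted p = 0.059). Cdx2, the intestinal homeobox factor, had 6664, 6577 and 6689 with vehicle and 5334, 5804 and 5502 with 4-OHT, a log2 fold change of -0.26 ± 0.04 (SE, adjusted p = 6.9e-05 in limma). Smad4 was lower by -0.16 ± 0.05, a call lost without vehicle replicate 1 (-0.15) or 4-OHT replicate 1 (-0.12).

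Crypt markers moved the opposite way to the 6 higher brush border genes. All 6 proliferation markers fell, their sum going from 1577 to 1675 RPM in the vehicle libraries to 819 to 944 with 4-OHT. All 5 tested of 6 stem cell markers fell, with sums of 603 to 619 and 382 to 420. The list of 8 absorptive colonocyte markers summed to 372 to 453 with vehicle and 571 to 692 with 4-OHT, and 4 of its 7 tested genes were higher and 0 lower. The sum mostly followed Car1, whose mean normalized read count went from 5170 to 9772. Slc26a3, Krt20 and Ceacam20 did not pass and had overlapping groups. Of the higher genes, Car4 and Aqp8 were low, with means of 1.59 and 17.7 with vehicle and 22.2 and 41.3 with 4-OHT. Car4 had 0.93, 1.42 and 2.42 with vehicle and 5.17, 11.4 and 50.1 with 4-OHT. The groups of Aqp8 overlapped, at 13.1, 32.6 and 7.26 with vehicle and 51.7, 18.7 and 53.5 with 4-OHT. None of the colonocyte or proliferation markers was at 0 in any library, and Olfm4 was the stem cell marker at 0 in vehicle replicate 2 and 4-OHT replicate 1. The part of these lists in the differences of the brush border genes was not tested.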

How the data were processed

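RNA sequencing values of 6 libraries were taken as the authors deposited them, as normalized counts (a signal of reads per gene divided by 1 factor per library). The submitters' processing notes list STAR, DESeq2, GRCm39 and mm39; the roles, versions, annotation, counting tool and strand setting are not given in the sources used here. All values (100%) were whole multiples of 1 read within 0.1, which gave the reads and the totals per library. Depth limits cover counting error only.

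Values were compared in R 4.3.3 with limma-trend (limma 3.58.1) on log2(normalized count + 1), over the 13210 rows with a mean of at least 10, two-sided, with Benjamini-Hochberg adjustment at 0.05. Fold changes on this scale understate changes of low genes. Alternatives were pseudocounts of 0.1 and 10, no filter, a mean of at least 50, TMM, quantile normalization, a replicate block, 1 library or both 4-OHT replicates 2 and 3 left out, and edgeR 4.0.16 (quasi-likelihood) and DESeq2 1.42.0 on the recovered reads. The fit was also run on simulated data with far fewer changed genes than passed here. That run cannot show how well the normalization holds in these data.

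The members, gene lists and marker lists were chosen with earlier results of these data known. Named were all members, up to 4 genes with the largest change past the threshold per group of other brush border genes, the adhesion genes, Prkci and Prkcz, and the 3 genes nearest to Ezr; names outside this rule are said to be so, and a few genes that enter the counts are not reported here by name. Replicate numbers were checked for pairing: same-numbered libraries deviated with correlations of -0.007, 0.030 and -0.020, so they were not treated as pairs. Replicates of a group differed by 3.35 to 6.04 times the counting variance, so none was a copy. Promoters are RefSeq entries of GRCm38.p6 and exon lengths are from GENCODE vM21, not the authors' build.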

Additional observations from a re-analysis of the deposited data

How the results depend on the processing

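The counts of 6 brush border genes higher and 0 lower were the same under all 16 alternatives, and each of the 6 kept its direction and its call. The 4 genes that did not pass stayed so, and their estimates changed sign under some alternatives: Pls1 at -0.0025 under quantile normalization, Ush1c at -0.0033 under TMM, -0.044 under quantile normalization and -0.0014 in edgeR. With 1 library left out at a time, Ush1c ranged from -0.031 to 0.043, Espn from -0.12 to 0.045, Myo7b from -0.098 to 4.2e-05 and Anks4b from -0.012 to 0.12. With 4-OHT replicates 2 and 3 both left out, 3569 of all genes passed (1858 higher, 1711 lower), 3 of the other brush border genes were lower, Anpep was at -0.65, Anks4b at -0.017 and Espn at -0.23, and the difference of the cadherins from Ush1c and Myo7b was 0.30. Fewer libraries enter that fit. Leaving out 1 library gave 4 to 7 lower other brush border genes, with 4 without vehicle replicate 1 and 5 without vehicle replicate 2, 4-OHT replicate 1 or 4-OHT replicate 2. Under quantile normalization the 6 rises were smaller, with log2 fold changes of 0.40 for Ezr, 0.33 for Cdhr2 and 0.30 for Cdhr5. Those of Eps8, Myo1a and Vil1 were 0.24, 0.24 and 0.12. Myh9 was at -0.039 under that normalization. The causes were not tested.

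With the replicate block, 5637 of all genes passed, 6 of the brush border genes were higher, and among the genes named in the brush border groups the calls of Myh14 (limma adjusted p = 0.060) and Myo6 (0.065) were lost. The labels do not say that equal numbers mark a shared culture. With 3 libraries per group, differences of the size of the rise of Vil1 or smaller were not detectable for Espn. The alternatives for that difference and for the genes named after their values were seen or nearest to Ezr were chosen after seeing the data.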

Other observations

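Several brush border membrane genes stayed under the filter on low values and were not tested. Dpp4, which encodes dipeptidyl peptidase 4, had 4.66, 5.67 and 4.84 normalized read counts with vehicle and 1.03, 13.5 and 13.7 with 4-OHT. Ggt1, a gamma-glutamyl transferase gene, had 0.93, 2.84 and 0 with vehicle and 0, 10.4 and 14.8 with 4-OHT. In both, 4-OHT replicate 1 was below or level with the vehicle libraries and 4-OHT replicates 2 and 3 were above them, as for Anpep. Mme, the neprilysin gene, had 6.53, 7.80 and 2.42 with vehicle and 2.07, 3.11 and 0 with 4-OHT. These genes were named after their values were seen.

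Of the small-intestinal enterocyte list (6 genes), all 3 tested were higher, with sums of 2.89 to 3.60 RPM with vehicle and 5.92, 13.9 and 12.6 in 4-OHT replicates 1, 2 and 3. Of 8 goblet markers, 5 were higher and 1 lower, with sums of 382 to 476 with vehicle and 400 to 450 with 4-OHT. Of 7 enteroendocrine markers, 5 were higher and 0 lower, with sums of 32.6 to 47.6 and 50.8 to 58.6. The 7 tuft markers in the table summed to 1.65 to 1.89 with vehicle and 0.83 to 2.39 with 4-OHT, and Gfi1b was at 0 in every library.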
